A study of Mus musculus with 18 samples.

Results

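Messenger RNA on the polysomes of 22-day mouse testes was compared with that of 17-day testes, later minus earlier, over every probe set of the array that was not an Affymetrix control. The comparison rests on 6 arrays of the 18 in the series, 3 for each age, and on 22626 of 22690 probe sets. All arrays came from testes of the outbred CD1 strain of mice, and the labels name no treatment and no genetic change. Cytoplasmic extracts were spun through 10 to 30% sucrose gradients that were collected in 17 fractions. RNA of fractions 11 to 17, the fast part of the gradient, made up the polysome sample. RNA of fractions 2 to 8, the slow part, made up the RNP (ribonucleoprotein particle) sample, whose 3 arrays at 17 days and 3 at 22 days serve here as a parallel comparison. Values of the 3 adult polysome arrays are given where they help to place a level. The labels number the replicates of a group but do not say how many animals stand behind each, so each p-value speaks of sample-to-sample spread alone, part of which may be technical.

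A polysome is a messenger RNA with several ribosomes on it, and a transcript found there is being translated or is ready to be. In the first wave of spermatogenesis in a young mouse the germ cells advance in step, so that the testis holds spermatogonia and spermatocytes first and gains round spermatids, the haploid cells that follow meiosis, as it grows. Spermatids are known for making many messenger RNAs long before the protein, which they keep in RNPs, and the protamines and transition proteins that pack sperm chromatin are the textbook case. In such bulk samples fewer cells of a type and less RNA per cell cannot be told apart, and because the authors scaled every array to 1 level, each change is relative to the other transcripts of the same array.

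The 6 polysome arrays had medians of 53.3 to 59.5 intensity units, and the first principal component, with 45.9% of their variance, separated the ages. Array 2 of the 17-day group stood apart. It correlated at 0.94 and 0.928 with its own group, whose other 2 arrays correlated at 0.979, and at 0.944 with array 2 of the 22-day group. Its poly-A control probe sets averaged 466 intensity units, against 81.1 to 239 on the other 5 arrays. Its Gapdh probe set ratio of 3′ to 5′ signal, a sign of RNA integrity, was 1.78, against 1.24 and 1.34 on the other 17-day arrays and 1.01 to 1.71 on the 22-day arrays. The tissue label was checked with a germ cell transcript. Sycp3, a component of the synaptonemal complex of meiotic cells, read 780 to 825 on the 17-day arrays and 760 to 828 on the 22-day arrays.

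The polysome changes between the ages that passed the test ran mostly upward. Among 14066 probe sets that passed a filter on low values, 384 differed between the ages (2.73%), 338 of them higher at 22 days (2.4% of those tested) and 46 were lower (0.327%), by limma with Benjamini-Hochberg adjusted p under 0.05. A filter pass needed a value above 51.6, the median of all values, on at least 3 of the 18 arrays, and the remaining 8560 probe sets were not tested. Differences are given as log2(value + 15.4), 22 minus 17 days, with the standard error of the limma model (SE, n = 3 arrays a group), a scale that understates the change of low values. The median of all tested probe sets was -0.06. At an unadjusted limma p under 0.05, 1179 of the 14066 were higher and 899 lower, the background for counts of gene lists at that level. Called rises had a median of 1.54 and called falls one of -1.02, and 303 of the rises were at least 2-fold (2.15%) against 25 of the falls (0.178%). Counts moved with single arrays: 177 probe sets passed without 17-day array 1, 176 without 17-day array 3, 155 without 22-day array 1 and 241 without 22-day array 3. Without 17-day array 2, which stood apart, 461 passed, 408 higher and 53 lower. Without both fractions of 17-day replicate 2 and adult replicate 1, 935 passed, 740 higher and 195 lower. The share of rises among the calls, 88%, was 96.4% with a pseudocount of 1 and 72.3% with one at the median of all values.

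Fewer of the transcripts that rose lay wholly under the filter value at 17 days than wholly above it. Of the 338 rises, 123 had all 3 polysome arrays at 17 days under 51.6 and 172 had all 3 above it. The 3 later arrays lay above the 3 earlier ones in 333 of the rises, where 12.7% of all tested probe sets had that order. Rises and falls were called on these same arrays, so such an order follows largely from the call and adds no support. Array 2 was the lowest of the 22-day arrays in 250 of the rises and the highest of the 17-day arrays in 206. The falls showed the opposite order, without overlap, in 45 of 46 (14.1% of all tested), and 8 of them had all 3 arrays at 22 days under 51.6. For the counts under or above 51.6, and for those of array 2, the share over all tested probe sets was not computed.

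The largest rise was that of Tsga8, a testis-specific gene. Its intensities on polysomes were 103, 173 and 74.2 at 17 days, 3325, 1718 and 3667 at 22 days, and 7351, 6203 and 5342 in adults. Every 22-day array lay above every 17-day array and under every adult array. The change was 22.0-fold (log2 4.46 ± 0.42, adjusted p = 1.38e-05). Cabyr, a calcium-binding protein of the fibrous sheath that wraps the sperm tail, read 6.3, 16.0 and 8.9 at 17 days and 669, 197 and 418 at 22 days. The groups did not overlap, and a second probe set of Cabyr also rose (2.95 ± 0.38), while another, at 18.3 on average at 22 days, did not pass (0.60 ± 0.43, adjusted p = 0.56). For the first the change was 3.96 ± 0.46 (adjusted p = 8.38e-05). Smcp, a cysteine-rich protein of the sheath of sperm mitochondria, read 9.6, 8.7 and 13.6 at 17 days and 639, 247 and 268 at 22 days. Its rise of 3.81 ± 0.33 (adjusted p = 4.35e-06) left it below its adult polysome values of 3254 to 3973.

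The rest of the 15 largest rises covered several functions. Sox5, a transcription factor with a short form in testis, read 5.5, 5.5 and 5.3 at 17 days and 382, 146 and 232 at 22 days (3.59 ± 0.37, adjusted p = 3.3e-05). Klhl10, an adaptor of a ubiquitin ligase needed in spermatids, read 8.9, 13.5 and 12.1 and then 352, 133 and 320 (3.30 ± 0.41, adjusted p = 0.000148). Stat4, a signal-dependent transcription factor, read 1.8, 2.3 and 1.6 and then 203, 74.5 and 231 (3.29 ± 0.55, adjusted p = 0.00198). In all 3 genes the 17-day arrays were near the floor and the lowest 22-day value came from array 2. Odf1, which helps to build the outer dense fibres along the tail, read 3.0, 2.3 and 2.9 at 17 days and 246, 65.6 and 110 at 22 days (2.93 ± 0.42, adjusted p = 0.000484). Ropn1, which binds anchoring proteins of the fibrous sheath, started higher, at 65.6, 36.3 and 67.4, and reached 692, 236 and 695 (2.84 ± 0.39, adjusted p = 0.000342). The others were Hils1, described with the chromatin genes, the keratin gene Krt88 (3.74), the uncharacterised 1700067P10Rik (3.10), the actin-related gene Actrt2 (3.09), Bscl2, which encodes the lipid droplet protein seipin (2.96), Dpysl3 (2.95) and the lysozyme-like gene Lyzl1 (2.94). Other probe sets of Bscl2 (1.10, adjusted p = 0.0978) and Dpysl3 (0.79, adjusted p = 0.347, and -0.38, adjusted p = 0.4) did not pass. All 15 passed the test without each of the 6 arrays in turn, with a highest adjusted p of 0.0201 for Actrt2.

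**Figure D1:**
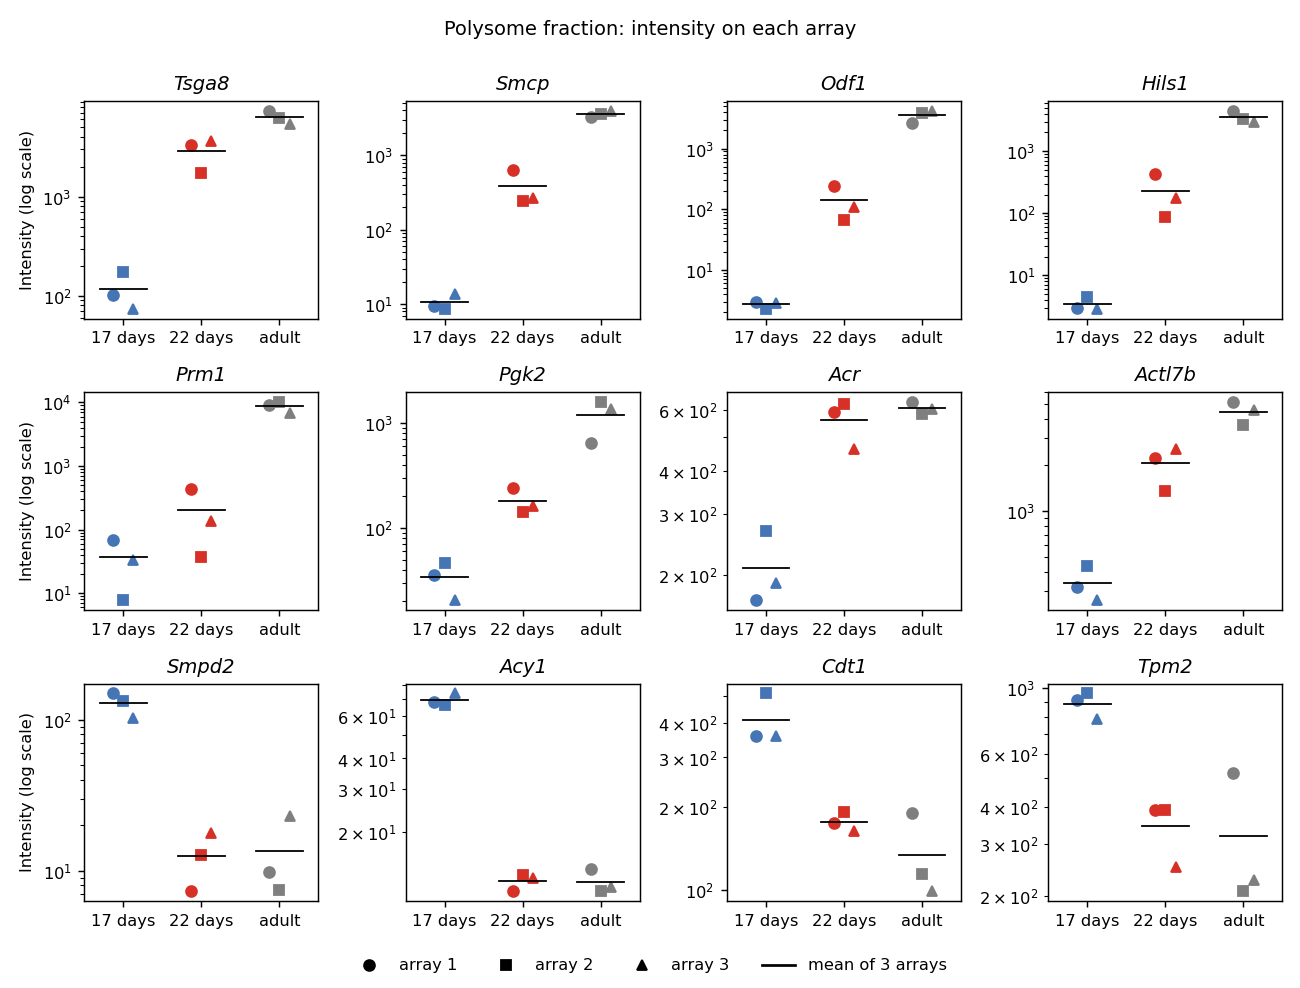
Polysome intensity (log axis) of 12 genes on each array at 17 days, 22 days and in adults, with array numbers as symbols and the mean of 3 arrays as a bar. Tsga8 lay at 74.2 to 173 at 17 days and 1718 to 3667 at 22 days, and the Prm1 probe set shown overlapped between these ages. Smpd2 and Acy1 were lower on every 22-day array than on every 17-day array.

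Sperm tail genes formed the group with the most rises. Of 57 listed genes 34 were tested, and 19 of these rose and 0 fell, where 3.06% of all genes tested, at 1 probe set a gene, rose and 0.344% fell. Their median change was 1.38 against -0.05 over all genes. The median intensity of the list's tested members was 73.1 to 129 on the 17-day arrays, 242 to 364 on the 22-day arrays and 784 to 1338 on the adult arrays. Akap4, the main scaffold of the fibrous sheath, missed the threshold by the probe set used for the gene, with 29.2, 32.6 and 44.2 at 17 days and 173, 105 and 152 at 22 days (1.63 ± 0.44, adjusted p = 0.0567). Those groups did not overlap, and its other probe sets passed at 2.60 ± 0.37 and 2.53 ± 0.50.

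Among acrosome and sperm surface genes, which build the secretory vesicle that a sperm opens at the egg, 24 of 40 were tested, 9 rose and 0 fell, with a median of 1.41. Acrv1, a protein of the acrosomal matrix, read 25, 29.5 and 13.6 at 17 days and 544, 285 and 98.3 at 22 days (2.83 ± 0.56, adjusted p = 0.00685). Its highest 22-day value, on array 1, was far above its lowest, on array 3, and the call ended without array 1 (adjusted p = 0.0677). Zpbp, which binds the egg coat, read 58.2, 251 and 62.1 and then 1123, 768 and 354 (2.59 ± 0.43, adjusted p = 0.0018). Here 17-day array 2 stood above its group but under every 22-day array. Zp3r rose by 2.53 ± 0.52 from values of 0.7 to 1.9, a call that ended without 22-day array 1 (adjusted p = 0.0894), and Eqtn, the acrosomal protein equatorin, by 2.17 ± 0.45, a call that ended without 17-day array 1, 17-day array 3 or 22-day array 1 (highest adjusted p = 0.0831). Acr, the acrosomal protease acrosin, was already present at 17 days, at 169, 268 and 190, and read 594, 626 and 463 at 22 days, close to its adult values of 586 to 633. Its change was 1.37 ± 0.27 (adjusted p = 0.00663), and 0.0537 without 17-day array 1. As a group the acrosome genes varied with the arrays used: 4 passed without 22-day array 1 and 15 without both fractions of 17-day replicate 2 and adult replicate 1.

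Regulators of spermatid development and germ cell isozymes gave similar shares. Of 37 listed regulators 29 were tested, 10 rose and 0 fell, with a median of 1.02. Besides Sox5 and Klhl10, Fhl4, a testis LIM-domain protein, read 123, 226 and 130 at 17 days and 1126, 853 and 616 at 22 days (2.33 ± 0.34, adjusted p = 0.000526). Tssk2, a testis-specific serine kinase, read 4.6, 2.5 and 9.3 and then 103, 56.7 and 87.9 (2.21 ± 0.34, adjusted p = 0.000828). Neither gene's groups overlapped, which was a condition for naming both. Crem, the cAMP-dependent activator of many spermatid genes, read 107, 60.8 and 124 at 17 days and 80.5, 91.4 and 119 at 22 days, overlapping groups with a difference of 0.02 ± 0.25 (adjusted p = 0.979).

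Germ cell isozymes are copies of common enzymes and actins that are made in the germ line. Of 34 listed 20 were tested, 10 rose and 0 fell, with a median of 1.26. Pgk2, the germ cell phosphoglycerate kinase, read 35.6, 46.7 and 20.6 on polysomes at 17 days and 243, 142 and 163 at 22 days (1.99 ± 0.33, adjusted p = 0.00187), below adult values of 649 to 1578. Actl7b, an actin-like protein, read 320, 438 and 262 and then 2245, 1351 and 2572 (2.52 ± 0.30, adjusted p = 8.38e-05), and its relative Actl7a rose by 2.17 ± 0.41. The later arrays of these genes all lay above the earlier ones. Ldhc, the germ cell lactate dehydrogenase, was abundant at both ages, at 5201 to 5871 and then 7321 to 8427 (0.48 ± 0.11, adjusted p = 0.0193). That small difference did not pass under quantile normalization (adjusted p = 0.79) or without a variance trend (0.17), nor without 17-day array 2, 17-day array 3, 22-day array 1 or 22-day array 3 (highest adjusted p = 0.0973). The somatic counterpart Ldha rose by 0.87 ± 0.21 and the phosphofructokinase Pfkp by 1.53 ± 0.32, the 2 rises among 12 tested genes of somatic glycolysis, whose median was -0.43. Both calls ended without array 1 or array 3 of either age, with highest adjusted p of 0.197 and 0.0836.

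The 6 tested genes of chromatin condensation had the highest median of all lists, 1.98, yet by the probe set used for each gene only Hils1 and Prm3 passed the test. Hils1, a linker histone of spermatids, read 3.0, 4.4 and 2.9 at 17 days and 427, 86.5 and 174 at 22 days (3.44 ± 0.47, adjusted p = 0.000357), against 2900 to 4478 in adults. Prm3, the acidic relative of the protamines, read 12.8, 30.6 and 25 and then 173, 50.7 and 170 (1.82 ± 0.36, adjusted p = 0.00663), a call that ended without array 1 of either age (highest adjusted p = 0.0652). Prm1, a protamine that replaces histones in sperm, read 69.0, 7.8 and 33.1 at 17 days and 432, 36.6 and 139 at 22 days. These groups overlapped, because 22-day array 2 lay under 17-day array 1 (1.75 ± 0.80, adjusted p = 0.315). Other Prm1 probe sets had lower means at 17 days, 1.33 and 0.467, and means of 138 and 116 at 22 days. They did not pass either (2.51 ± 0.86, adjusted p = 0.142, and 2.31 ± 0.86, adjusted p = 0.188). Tnp1, a transition protein that precedes the protamines, read 1.7, 1.2 and 2.9 and then 266, 8.5 and 47.4, without overlap but with a wide spread at 22 days (2.12 ± 0.78, adjusted p = 0.181). A second and dimmer Tnp1 probe set passed, from a mean of 1.17 to one of 21.0 (1.10 ± 0.27, adjusted p = 0.0302). Prm2 (1.84 ± 0.79, adjusted p = 0.272) and Tnp2 (2.28 ± 0.87, adjusted p = 0.202) were alike in being lowest on array 2 at 22 days, at 22.9 and 15.9. Adult polysomes read 6893 to 10117 for Prm1 and 3190 to 3988 for Tnp1.

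**Figure D2:**
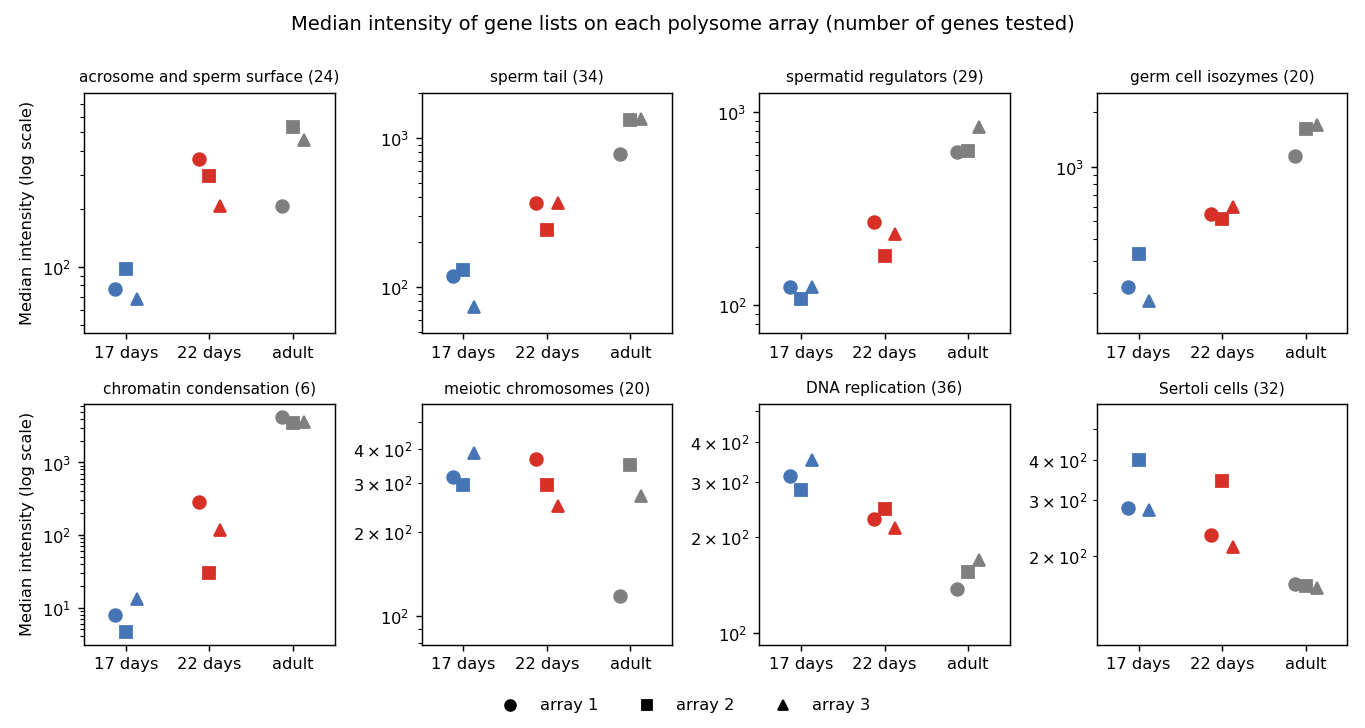
Median polysome intensity (log axis) of the tested genes of 8 lists on each array at 17 days, 22 days and in adults, with array numbers as symbols. The sperm tail list lay at 73.1 to 129 at 17 days and 242 to 364 at 22 days, the chromatin condensation list was lowest at 22 days on array 2 (29.8), and the DNA replication list lay at 282 to 351 and then 215 to 246.

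Promoters of the genes that rose were searched for a cAMP response element, the site of the CREB and CREM family, which is known for driving spermatid genes. The motif searched was TGACGTCA, which reads the same on both strands, in the 250 bases before each RefSeq start (GRCm38.p6). Of 267 genes that rose by the probe set used for each gene, 207 had a promoter sequence and 9 of these held the motif (4.35%, 95% Wilson interval 2.3 to 8.06%). Over all tested genes 220 of 7093 held it (3.1%), a share within that interval. Counted by single window and not by gene, a different unit, 1.55% of all 32851 promoter windows held it. The motif GTTGCCA, core of the sites of RFX factors, stood in 6.76% against 3.65% of tested genes, and AACTGCC, core of the sites of MYB factors, in 5.31% against 3.47%, each sought on both strands. These shares are descriptions, and genes that rose had 1.46 windows each against 1.29 over all tested genes. In 7 of the 9 genes the cAMP response element lay within 100 bases of the start, and these stretches are shown, 5′ to 3′ on the gene's strand with the motif in capitals, since these matches lie nearest to a start among the genes that rose.
Spag4, chr2:156065156-156065203, plus strand: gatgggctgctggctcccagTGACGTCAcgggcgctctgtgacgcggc
Znrf4, chr17:56512525-56512572, minus strand: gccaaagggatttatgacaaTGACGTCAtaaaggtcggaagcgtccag
Iqcf3, chr9:106561650-106561697, minus strand: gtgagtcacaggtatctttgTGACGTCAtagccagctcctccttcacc
Mycbpap, chr11:94521503-94521544, minus strand: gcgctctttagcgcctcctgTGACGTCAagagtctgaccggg
Tesk1, chr4:43442164-43442211, plus strand: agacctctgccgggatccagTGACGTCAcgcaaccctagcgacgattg
Ppm1d, chr11:85311149-85311196, plus strand: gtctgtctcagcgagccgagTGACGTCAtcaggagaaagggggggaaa
Ldha, chr7:46845772-46845803, plus strand: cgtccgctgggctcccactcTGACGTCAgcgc

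Spag4, a sperm-associated antigen of the spermatid nuclear envelope and tail, rose the most of these 7 on polysomes, from a mean of 7.27 to one of 153 (2.81 ± 0.34, adjusted p = 0.000119). Its motif lay 37 to 30 bases before the start. Mycbpap rose by 1.61 ± 0.24 and the testis kinase gene Tesk1 by 1.23 ± 0.30, and Ldha, whose motif lay 12 to 5 bases before the start, by 0.87 ± 0.21.

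Few genes of meiosis passed the test. Of 20 tested genes of meiotic chromosomes 1 rose (5%), the cohesin gene Rec8, from 30.5, 43.3 and 48.6 to 127, 93.4 and 151 (1.30 ± 0.30, adjusted p = 0.0226), a call that ended without array 1 or array 3 of either age (highest adjusted p = 0.145). Of 23 tested genes of the meiotic divisions 2 rose (8.7%, against 3.06% of all genes) and 0 fell, with a median of 0.16. At an unadjusted p under 0.05 there were 5 higher and 0 lower, and the summed intensity of the list was 14690 to 17740 at 17 days and 18540 to 23470 at 22 days, without overlap. Ccna1, the cyclin of male meiosis, read 85.2, 186 and 70.1 at 17 days and 477, 432 and 572 at 22 days, without overlap (2.08 ± 0.34, adjusted p = 0.00163). The B-type cyclin Ccnb2 rose by 0.88 ± 0.19 (adjusted p = 0.0123), and did not pass without array 1 or array 3 of either age (highest adjusted p = 0.101). Hspa2, a chaperone of spermatocytes, read 1371 to 2158 and then 1971 to 3393 (0.42 ± 0.30, adjusted p = 0.552).

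Machinery that stores and translates messenger RNA was mostly below the threshold. Of 37 tested genes of RNA storage and translational control, 2 rose and 1 fell. Their summed intensity was 27400 to 30730 at 17 days and 32750 to 36270 at 22 days, without overlap. The list's median intensity did overlap, at 494 to 604 and then 533 to 560. The median change was 0.02, and 20 of the 37 changes were positive. At an unadjusted p under 0.05 there were 8 higher and 4 lower. Papolb, the testis poly(A) polymerase of the cytoplasm, read 111, 125 and 91.1 and then 523, 340 and 419 (1.82 ± 0.39, adjusted p = 0.0118). Tdrd7, a Tudor protein of the chromatoid body where spermatids gather RNA, rose by 1.11 ± 0.25, and Cpeb1, which binds cytoplasmic polyadenylation elements, fell by 0.87 on the log2 scale (SE 0.21, adjusted p = 0.026). Neither group of arrays overlapped the other in these 3 genes, a condition for naming them. Each call ended without 17-day array 1, 17-day array 3 or 22-day array 1, and those of Tdrd7 and Cpeb1 also without 22-day array 3. The highest adjusted p were 0.0836, 0.114 and 0.178. By limma 0 of 43 ribosomal protein genes and 0 of 40 translation factors passed, with medians of -0.20 and -0.07. The ribosomal protein sums did not overlap, at 84130 to 91840 and then 73980 to 81570, and 4 of the 43 changes were positive. Those of translation factors overlapped, at 42250 to 45210 and then 42030 to 46860. At an unadjusted p under 0.05 there were 5 lower ribosomal protein genes, and 1 higher and 1 lower translation factor. Of 41 proteasome genes the ATPase subunit gene Psmc3 rose (0.71 ± 0.17), and of 70 respiratory chain genes Ndufa4 fell (-1.03 ± 0.26), calls that ended without array 1 or 3 of either age for Psmc3 (highest adjusted p = 0.116) and without 17-day arrays 1 or 3 or 22-day arrays 1 or 2 for Ndufa4 (0.225). Actb, the cytoplasmic actin, read 4370 to 5089 and then 4822 to 5505 (0.15 ± 0.13, adjusted p = 0.64).

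**Figure D3:**
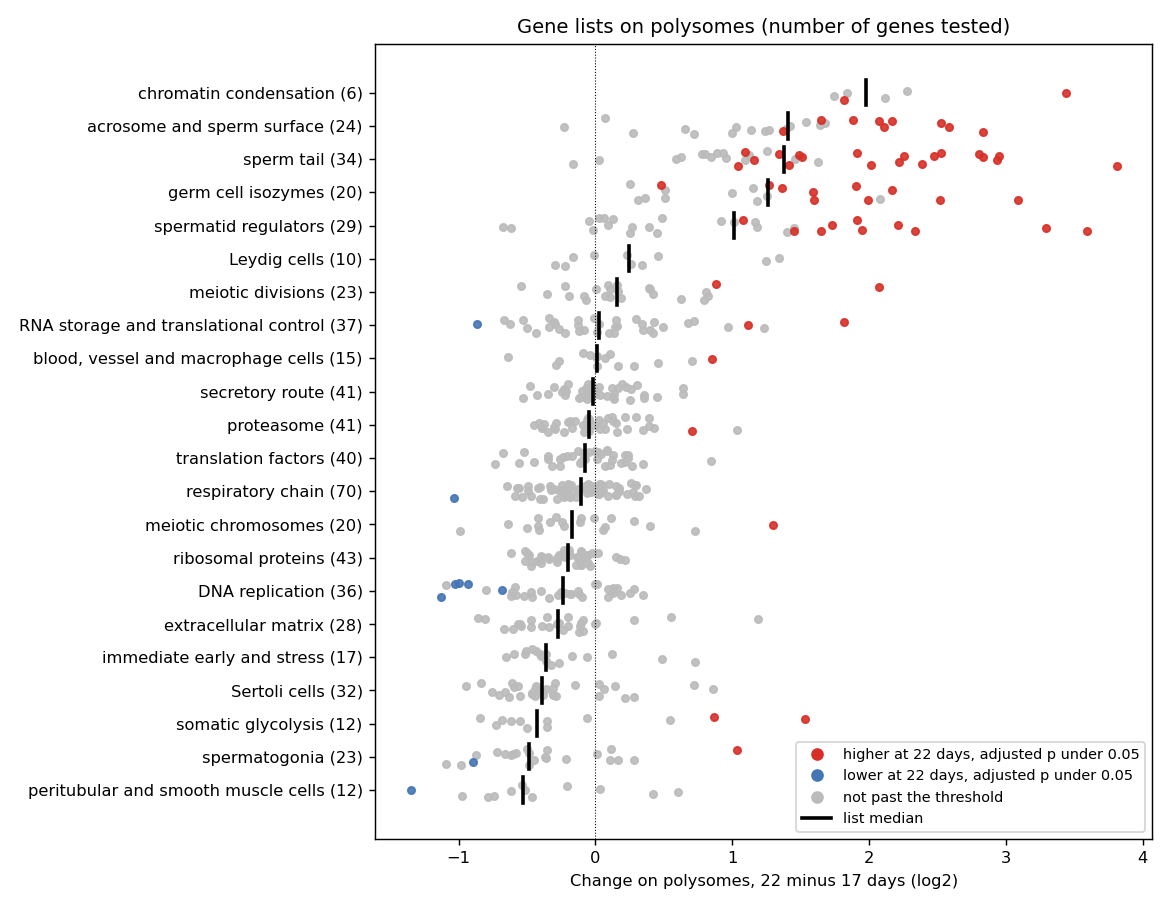
Change on polysomes from 17 to 22 days (log2, horizontal axis) of each tested gene in 22 lists, coloured by the limma call, with the list median as a bar. Sperm tail (19 of 34), acrosome, isozyme and regulator genes hold most of the rises, and DNA replication holds 5 falls.

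The falls were smaller and depended more on single arrays. Smpd2, a neutral sphingomyelinase, read 150, 133 and 102 on polysomes at 17 days and 7.3, 12.7 and 17.7 at 22 days, near its adult values of 7.5 to 23.1 (-2.36 ± 0.26, adjusted p = 6.95e-05). Acy1, an aminoacylase, read 68.4, 66.1 and 73.9 and then 11.4, 13.3 and 12.9 (-1.60 ± 0.23, adjusted p = 0.00049). Both genes were tightly grouped at each age and passed without each of the 6 arrays. Nop56, a core protein of box C/D small nucleolar particles, fell by one probe set, from 129, 176 and 150 to 56.5, 53.5 and 41.3 (-1.34 ± 0.26, adjusted p = 0.00663), which passed without each array but not with a pseudocount of 1 (adjusted p = 0.0717). Its other probe set, at means of 171 and 154, did not pass (-0.16 ± 0.29, adjusted p = 0.854).

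The rest of the 15 largest falls covered varied functions. Cdt1, which licenses replication origins, read 358, 509 and 357 and then 175, 191 and 163 (-1.13 ± 0.25, adjusted p = 0.0142). Sod1, the cytosolic superoxide dismutase, read 1857, 2030 and 1468 and then 692, 601 and 1016, but was 1526 to 1960 on adult polysomes (-1.22 ± 0.26, adjusted p = 0.0136). A second Sod1 probe set, at means of 226 and 413, went the other way without passing (0.85 ± 0.26, adjusted p = 0.0921). Ndn, the imprinted gene of necdin, read 273, 276 and 241 and then 126, 157 and 71.8 (-1.11 ± 0.24, adjusted p = 0.0115). The groups of these 3 genes did not overlap, which was a condition for naming them. Cdt1 did not pass without 17-day array 2 or 22-day array 1 or 3 (highest adjusted p = 0.0703). Sod1 did not pass without 17-day array 1 or 22-day array 1 or 2 (0.0814), and Ndn without 17-day array 1 or 22-day array 3 (0.0758). S100a10, the partner of annexin A2 (-1.20), Ppp2r5c, a regulatory subunit of protein phosphatase 2A (-1.18), and Dlk1, an imprinted Notch-like ligand (-1.16), each lost the call without some arrays. For S100a10 these were array 1 or 3 of either age (highest adjusted p = 0.136), for Ppp2r5c 17-day array 1 or 3 or 22-day array 1 (0.141), and for Dlk1 17-day array 1 or 22-day array 1 or 3 (0.108). Serpinh1, the collagen chaperone (-1.04), passed without 22-day array 2 and failed without any other (highest 0.217). The actin-binding genes Pdlim4 (-1.42) and Tpm2 (-1.35), the mitochondrial channel Vdac1 (-1.25), the phosphatase Dusp9 (-1.10) and the ubiquitin ligase gene Fbxo32 (-1.05) failed whichever array was left out, with adjusted p of 0.0528 to 0.246. Ppp2r5c also had a probe set that rose, from a mean of 118 to one of 376 (1.55 ± 0.28, adjusted p = 0.0033), the 1 gene called in both directions. Other probe sets of S100a10 (-0.35), Serpinh1 (-0.36), Vdac1 (-0.87 and -0.51), Ndn (-1.14 to -0.32 over 4) and Tpm2 (adjusted p of 0.13 and 0.887) did not pass.

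DNA replication genes, whose products copy the genome in dividing cells, included 5 of the falls among 36 tested genes (13.9%, against 0.344% of all genes) and 0 rises, with a median of -0.24. Besides Cdt1 these were the ligase gene Lig1, from 525, 692 and 576 to 232, 337 and 289 (-1.03 ± 0.26, adjusted p = 0.0408), the helicase subunit genes Mcm5 (-0.99 ± 0.26) and Mcm3 (-0.93 ± 0.25) and the clamp loader gene Rfc5 (-0.68 ± 0.18). Mcm3 was close to the threshold (adjusted p = 0.0496). Its other probe sets did not pass (-0.97, -0.74 and -0.24, adjusted p of 0.096, 0.345 and 0.764). The later arrays lay under the earlier ones in all of Lig1's values. The number of falls in the list was 1 without 17-day array 1 or 3, 3 without array 2 of either age, 0 without 22-day array 1 or 3, and 6 without both fractions of 17-day replicate 2 and adult replicate 1. Among 23 tested spermatogonial genes the median was -0.49, with 1 higher and 10 lower at an unadjusted p under 0.05. Their summed intensity was 5736 to 6864 at 17 days and 4743 to 5258 at 22 days, without overlap. After adjustment Dnmt3b, a DNA methyltransferase, fell (-0.89 ± 0.22, adjusted p = 0.0279) and Dmrtb1, a factor of the entry into meiosis, rose (1.04 ± 0.24, adjusted p = 0.0233). A second Dnmt3b probe set did not pass (-0.45 ± 0.42, adjusted p = 0.677). The Dnmt3b call ended whichever array was left out (adjusted p of 0.0754 to 0.103) and the Dmrtb1 call without array 1 or array 3 of either age (highest 0.147). Kit, the receptor of differentiating spermatogonia, read 69.3 to 118 and then 32.5 to 106 (-0.36 ± 0.30, adjusted p = 0.631).

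Markers of somatic cells were measured as a check on the makeup of the samples. Of 32 tested Sertoli cell genes 0 passed by limma on polysomes, with a median of -0.39. At an unadjusted p under 0.05 there were 3 lower, where 899 of all 14066 probe sets were lower. Their summed intensity was 16340 to 22060 at 17 days and 10150 to 19590 at 22 days, and Clu, the abundant chaperone clusterin of Sertoli cells, spread from 1613 to 4313 and then from 673 to 2749 (-0.75 ± 0.59, adjusted p = 0.6), highest on array 2 at each age. Amh, the anti-Müllerian hormone of immature Sertoli cells, was low at both ages, at 25.8 to 71.1 and 33.9 to 85.1. Of 10 Leydig cell genes 0 passed by limma, with 2 higher at an unadjusted p under 0.05 and sums of 2582 to 3531 and 3080 to 4630. Of 12 peritubular and smooth muscle genes Tpm2 alone fell, but the sums did not overlap, at 6159 to 7306 and 3018 to 4819, and the median was -0.53. Of 15 blood, vessel and macrophage genes Alas2, the haem synthesis enzyme of red cells, rose from 31.3, 31.2 and 35.6 to 57.3, 79.5 and 79.2 (0.85 ± 0.18, adjusted p = 0.0118), a call that ended without 17-day array 1, 22-day array 2 or 22-day array 3 (highest adjusted p = 0.0663), while the list's sums overlapped, at 770 to 983 and 793 to 1140. In RNPs 10 of the 32 Sertoli genes were called lower and 1 higher, with a median of -0.87, where 9.99% of all genes were lower and 6.66% higher. Of the 12 peritubular genes 5 were lower and 2 higher there, and of the 10 Leydig genes 1 was lower and 0 higher. No tested marker of these 4 lists was listed at 0 on any of the 6 polysome arrays, which held for every list and so says little. Inhba of the Sertoli list and Hsd17b3 and Vcam1 of the Leydig list were under 51.6 on all 6. The part of these cells in the germ cell changes was not tested.

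RNP arrays of the same ages share no array with the polysome comparison. In RNPs 780 probe sets were higher at 22 days (5.55%) and 1462 were lower (10.4%). Of the 338 polysome rises 241 were also called higher in RNPs, 97 were not called there and 0 were called lower. Of the 46 falls 32 were also called lower and 14 were not called. The median RNP change was 1.28 among the polysome rises and -0.97 among the falls. The test of the difference, polysome change minus RNP change, called 0 of 14066 probe sets by limma (0%), with 817 at an unadjusted p under 0.05 and a lowest adjusted p of 0.176. Arrays with the same age and replicate number deviated together in the 2 fractions, and with that pair as a block in the limma model the test called 205 (1.46%), with 1842 at an unadjusted p under 0.05. Of these, 148 had the more positive change in RNPs (1.05%) and 57 on polysomes (0.405%). Within the polysome rises, 52 had the more positive change in RNPs and 7 on polysomes. All differences of changes that follow are called only with the pair as a block. Of the 148, 140 were called higher in RNPs, and on polysomes 52 were called higher, 1 lower and 95 not at all. Of the 57, 47 were called lower in RNPs and 10 were not called there, while on polysomes 7 were called higher and 50 were not called. Genes are named from the probe sets called on polysomes with groups that did not overlap, 51 on the RNP side and 6 on the polysome side, and larger differences outside that limit are given after them.

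Among the calls with the more positive RNP change were some genes of the sperm head and tail. By the probe set used for each gene these were 7 of 34 sperm tail and 2 of 24 acrosome genes, with 0 called the other way. Other lists had such calls too: 6 of 20 germ cell isozymes, with 1 the other way, and 4 of 29 spermatid regulators, with 0. As whole lists the sperm tail and acrosome genes had median differences of 0.228 and 0.398, more positive on polysomes, while chromatin condensation had -2.3. Nt5c1b, a cytosolic nucleotidase, read 8.5, 27.9 and 18.6 and then 138, 70.4 and 77.6 on polysomes, but 22.9, 18.5 and 3.2 and then 995, 415 and 836 in RNPs. Its change on polysomes, 1.71, was thus smaller than that in RNPs, 4.63, by 2.93 ± 0.35 (adjusted p = 0.00197 with the pair as a block, 0.176 without). Odf1 reached 1664, 510 and 1378 in RNPs at 22 days from 2.1 to 11.2, a change of 5.66 against 2.93 on polysomes (adjusted p = 0.000535 with the block, 0.277 without). Hils1 reached 2359, 460 and 1426 there from 2.6 to 4.4, a change of 5.96 against 3.44 (adjusted p = 0.000503, and 0.38 without). Array 2 was again the lowest at 22 days in RNPs for each of these 3 genes. Within the same limit the next in size were Cypt1, a protein of the perinuclear theca (1.92 on polysomes, 4.57 in RNPs), the sialyltransferase St6galnac2 (2.31 and 4.83) and the tail gene Odf3 (2.22 and 4.60). Differences of like size stood in genes without a polysome call: Ica1 (-0.33 on polysomes, 2.41 in RNPs), the brighter Tnp1 probe set (2.12 and 4.76), Cdc42ep5 (-1.03 and 1.57) and Prkcq (1.06 and 3.64). Of the 6 chromatin condensation genes all 6 rose in RNPs, with a median of 4.25 against 1.98 on polysomes, and 5 differed between fractions with the block. Prm1 rose in RNPs by 4.13, from 16.3 to 33.4 at 17 days to 2960, 121 and 962 at 22 days (adjusted p = 0.00213), where its polysome change did not pass.

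A more positive change on polysomes mostly went with a fall in RNPs. The medians of the 57 probe sets were -0.18 on polysomes and -1.47 in RNPs. Among those without a polysome call, Tesc had -0.59 on polysomes and -2.72 in RNPs, the other Nop56 probe set -0.16 and -2.24, and the transcription factor gene Foxo3 0.56 and -1.35. The 6 that met the condition for naming were all higher on polysomes. Bscl2 read 28.2, 201 and 13.8 and then 570, 566 and 363 on polysomes, while its RNP values were 1077, 1383 and 1183 and then 1800, 1449 and 1913. The polysome change of 2.96 exceeded the RNP change of 0.50 by 2.46 ± 0.54 (adjusted p = 0.0381 with the block, 0.429 without). At 17 days array 2 held the highest polysome value of Bscl2. Cmtm2a, a testis membrane protein gene, read 44.2, 70.8 and 75.2 and then 314, 476 and 524 on polysomes, against 666, 344 and 737 and then 1048, 987 and 1161 in RNPs (changes of 2.52 and 0.92). Pabpc2, a poly(A)-binding protein of testis, read 227, 490 and 219 and then 1417, 1199 and 1111 on polysomes, against 1463 to 2248 and 2535 to 3474 in RNPs (2.03 and 0.82). The others were the glycerol kinase Gk2 (1.60 and 0.73), 4930544G11Rik (1.93 and 0.89) and Alas2 (0.85 and -0.38). Being called on polysomes was the condition for naming these 6. Their RNP changes did not pass, and their differences without the block had adjusted p of 0.277 to 0.843.

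**Figure D4:**
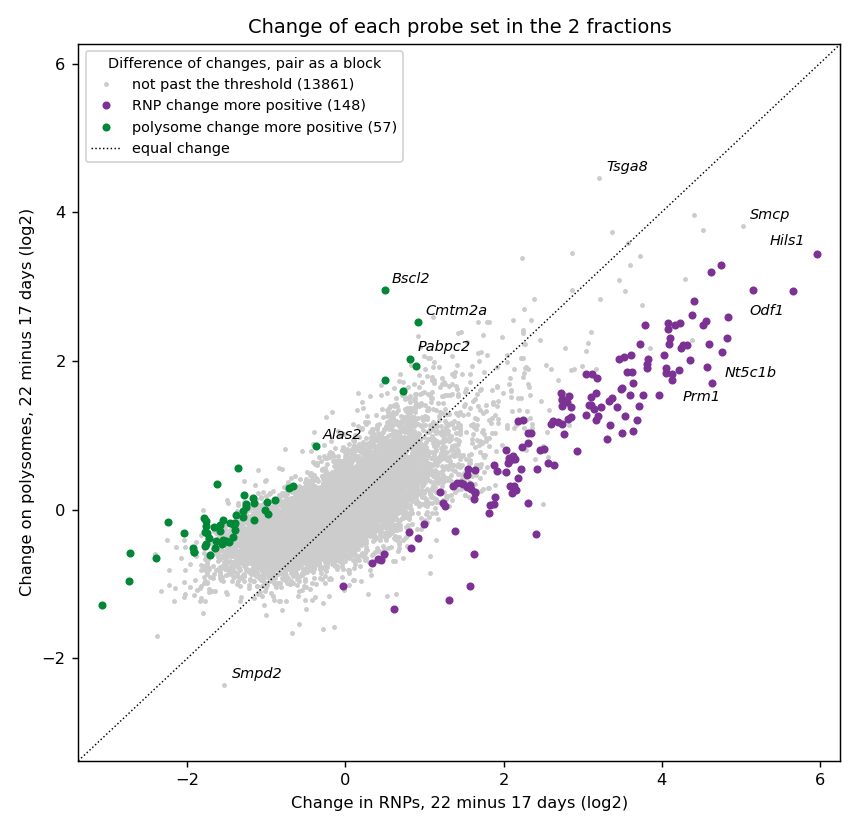
Change from 17 to 22 days on polysomes (vertical axis) against that in RNPs (horizontal axis) for 14066 probe sets, both log2, coloured by the test of the difference with the pair of age and number as a block. The 148 probe sets with the more positive RNP change include Odf1, Hils1, Nt5c1b and Prm1, and the 57 with the more positive polysome change include Bscl2, Cmtm2a, Pabpc2 and Alas2.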

How the data were processed

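The deposited values are linear intensities, 1 for each probe set on each array, which the authors computed with MAS5, according to the submitters' processing notes. Its version and scaling target: not given in the sources used here. Means trimmed by 2% at each end lay between 150.042 and 150.071. Names come from the platform annotation (20393 of 22690 probe sets had 1 symbol, 691 several, 1606 none), and 20364 were found by Entrez ID in RefSeq's GRCm38.p6 table. Signals were tested as log2(value + 15.4), 15.4 being the 25th percentile, with limma 3.58.1 in R 4.3.3. All 18 arrays in 6 groups entered lmFit and eBayes with a variance trend (12 residual and 6.52 prior degrees of freedom), and tests were two-sided. The script was tested on simulated data. The number of arrays limits the precision.

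Lists use 1 probe set a gene. Named genes are the 15 largest called rises and falls without overlap, up to 4 per list, the 6 largest called differences of changes each way among probe sets also called on polysomes without overlap (taken with the pair as a block, since the model without it gave none) and fixed genes of spermatogenesis. Gapdh has no probe set that names it alone. The members and lists were chosen with earlier results of these data known.

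Replicate numbers, from the labels, paired the fractions within an age: deviations from group means correlated at 0.311 to 0.566 at 17 days and 0.198 to 0.345 at 22 days for equal numbers, against -0.46 to 0.346 and -0.254 to -0.00295 for unequal ones. At 17 days polysome array 3 and RNP array 1 reached 0.346, above the equal pairs of number 1 (0.311) and number 3 (0.338). Across ages polysome arrays of 1 number correlated at -0.0497, 0.374 and 0.297, and the numbers were not taken to pair ages. These values do not separate the pairings cleanly, so the block within an age, on which the 205 calls rest, was a choice.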

Additional observations from a re-analysis of the deposited data

Results flagged for a closer look

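With the pair of age and number as a block, 205 probe sets changed differently in the 2 fractions between 17 and 22 days. Values are polysome change minus RNP change on the log2 scale, and none of them passed without the block.

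Named genes with the more positive RNP change were Nt5c1b (-2.927), Odf1 (-2.731), Cypt1 (-2.649), Tnp1 (-2.645), St6galnac2 (-2.523), Hils1 (-2.522), Prm1 (-2.381), Odf3 (-2.379), Prm2 (-2.214), Dpysl3 (-2.202), Tssk2 (-2.105), Actl7a (-2.077), Akap4 (-1.864), Klhl10 (-1.462), Prm3 (-1.219) and Lig1 (-1.002). Of these, 3 encode protamines (Prm1 and Prm2) or their relative (Prm3), and Lig1 fell on polysomes where its RNP change was -0.03.

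Those with the more positive polysome change were Bscl2 (2.461), Cmtm2a (1.595), Alas2 (1.23), Pabpc2 (1.211), 4930544G11Rik (1.034) and Gk2 (0.8687).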

How the results depend on the processing

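The polysome comparison called 384 probe sets. Leaving out 1 array at a time gave 155 to 461, with 145 to 408 rises and 6 to 53 falls, and without both fractions of 17-day replicate 2 and adult replicate 1 there were 935, 740 and 195. The 46 falls became 15 with a pseudocount of 1, 102 with one at the 50th percentile, 70 under quantile normalization, 27 with the filter at the 75th percentile and 104 with only the compared groups in the fit. Other settings kept each count within 1.5 times. The replicate number as a block across ages gave 429 calls, 379 higher and 50 lower. The 9 acrosome rises became 4 to 11 without 1 array and 15 without the 4 arrays. RNP calls, 2242 in all, were 855 to 3142 with arrays left out. The difference of changes, 0 calls, gave 1 with a pseudocount at the 50th percentile, 1 with only the compared groups, 0 to 91 without 1 array (91 without RNP 22-day array 2) and 205 with the replicate block of age and number as a pair. Of 59 named called probe sets, 23 of 38 rises and 3 of 21 falls passed without each array. Signs of genes that never passed turned, and their ranges with arrays left out were -0.2356 to 0.2011 for Crem, -0.03659 to 0.02838 for Sycp3, -0.008492 to 0.6073 for Amh and -0.6172 to 0.05121 for Kit: Crem -0.2356 without 17-day array 2, also without the 4 arrays, and -0.1108 without 22-day array 3; Sycp3 0.01927 with median centring, 0.001741 without 17-day array 2, also without the 4 arrays, 0.003288 without 17-day array 3 and 0.02838 without 22-day array 3; Amh -0.008492 and Kit 0.05121 without 22-day array 3. In a window of 100 bases the MYB motif stood in 2.9% of genes that rose and 1.16% of tested genes, not 5.31% and 3.47%, and the RFX motif in 4.35% and 1.86%, not 6.76% and 3.65%. The causes were not tested.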

Other observations

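Genes of the extracellular matrix, which supports the tubule wall, did not pass on polysomes. In RNPs 5 of the 28 tested fell and 0 rose, where 9.99% of all genes fell and 6.66% rose there. By limma 0 of the 28 were called on polysomes, with a median of -0.27. At an unadjusted p under 0.05 there were 2 higher and 1 lower, where 1179 and 899 of all 14066 probe sets were. Of 41 genes of the secretory route, which carries proteins into the endoplasmic reticulum and onward, 0 were called on polysomes by limma (1 higher at an unadjusted p under 0.05), with a median of -0.02. Of 17 immediate early and stress genes, which respond within minutes to handling and hormones, 0 were called by limma on polysomes (1 higher at an unadjusted p under 0.05), with a median of -0.36. In RNPs 1 of them rose and 4 fell, beside the same shares of all genes, 6.66% and 9.99%. Whether the polysome and RNP changes of these lists differ was tested gene by gene with the pair as a block. By the probe set used for each gene 0 passed, and a second probe set of the transcription factor gene Klf4 did (0.54 on polysomes, 2.22 in RNPs, a difference of -1.68, adjusted p = 0.00343).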
